A study of Aspergillus nidulans with 9 samples.

Results

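Vegetatively grown cells (Vege) of *Aspergillus nidulans* of a wild-type strain (WT) were compared with those of a Δ*veA* and of a Δ*laeA* strain, and the subject here is the set of genes whose transcripts were much more abundant in both mutants than in WT. Of 10988 rows in the table of read counts, 136 genes (1.24%) met the rule that defines them. The genes were selected on their ratios to WT. Counts were scaled to CPM (a gene's count in a library of 1000000 counts), and the mean of each genotype was taken. The log2 ratio of mutant to WT was computed after 0.5 CPM was added to both means, and the median ratio over the 8905 genes that averaged 1 CPM or more was subtracted, which was -0.23 for Δ*veA* and -0.31 for Δ*laeA*. A gene was taken when this centred ratio was at least 1.5 in both mutants and its mean was at least 5 CPM in both. Ratios to WT are therefore given below as a description, with no test. The comparison of both mutants with each other was not itself a criterion of the rule and is the one that was tested. Requiring a high level in both mutants still bears on the difference between them.

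VeA and LaeA are nuclear regulators of fungal development and metabolism. In the dark VeA and a second velvet-domain protein, VelB, move into the nucleus together, where they form a complex with LaeA, a protein with a methyltransferase-like domain. The complex is known in aspergilli for promoting sexual development and secondary metabolite production, and the loss of either protein alters the transcript level of many genes outside these programmes.

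RNA was sequenced from 9 libraries, 3 per genotype, of hyphae grown for 24 h in liquid glucose minimal medium with shaking in the dark. The strain list gives the genotype Δ*veA*::*argB* for the *veA* mutant and *methG1*; Δ*laeA*::*methG*; *veA* for the *laeA* mutant, so that each null allele carries a nutritional marker, and WT has no modified allele in that list. Each mutant is a single strain, and neither the labels nor the methods state whether the 3 libraries of a genotype came from separate cultures. The p-values therefore measure the spread between these libraries, which may be technical.

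Reads counted on genes ranged from 13396869 to 35755046 per library, and replicates of a genotype differed beyond sampling noise in each pair (chi-square per degree of freedom 2.88 to 13.8). The count of *veA* goes against its label: it was 116, 108 and 108 CPM in WT against 815, 785 and 773 CPM in the libraries that carry the Δ*veA* label, which are therefore called Δ*veA*-labelled libraries. *laeA* was at 37.9, 35.2 and 34.2 CPM in WT against 4.96, 6.61 and 5.597 CPM in the Δ*laeA* libraries. The marker *argB* was at 80.5 CPM in WT (mean, n = 3) and 454 CPM in the Δ*veA*-labelled libraries. Markers of conidiophores and conidia summed to 91.7 to 92.6 CPM in WT, 36.01 to 36.32 CPM in the Δ*veA*-labelled libraries and 47.1 to 51.2 CPM in the Δ*laeA* libraries (9 genes). Of the 9, 6 were called lower than WT in the Δ*veA*-labelled libraries (19.9% of all genes tested) and 5 in the Δ*laeA* libraries (14.5% of all genes tested). Not all fell: in the same order of groups, *yA* had means of 9.36, 8.62 and 8.91 CPM, and *wetA* of 5.81, 0.79 and 5.32 CPM. Markers of sexual tissue summed to 2072 to 2146, 219 to 244 and 525 to 564 CPM (3 genes). *gpdA*, the only gene listed for vegetative hyphae that was found by symbol, had 3184 to 3333, 7659 to 8380 and 9157 to 9845 CPM. It is also a glycolysis gene, so its level cannot be read as an amount of hyphae. *esdC* made up most of the sexual tissue sum (1866, 70.6 and 342 CPM), whereas *nsdD* had 97.7, 92.6 and 123 CPM. The paper reports binding of both VeA and LaeA at the *esdC* promoter, so this sum cannot be read as an amount of sexual tissue. The part of these shifts in the results below was not tested. In RNA from whole cultures, fewer cells of a type and less RNA per cell cannot be told apart.

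The 136 genes took 1.86% to 1.93% of all WT counts, 7.18% to 7.55% in the Δ*veA*-labelled libraries and 5.74% to 5.76% in the Δ*laeA* libraries. Their median mean level was 10.8 CPM in WT (lowest 0.338, highest 4381), 68.4 CPM in the Δ*veA*-labelled libraries and 54.6 CPM in the Δ*laeA* libraries, where levels are CPM after TMM normalization, which corrects library totals for differences in composition. In WT, 66 of the genes were under 10 CPM, 54 were between 10 and 100 CPM and 16 were at 100 CPM or more. None had a count of 0 in a WT library, and the lowest count of any of them was 5 in any library and 89 in a mutant library. The median log2 ratio to WT in the fitted model was 2.39 for the Δ*veA*-labelled libraries (range 1.55 to 7.57) and 2.18 for the Δ*laeA* libraries (1.52 to 5.47), beside medians near 0 over the 9481 genes tested (0.0012 and -0.0041). The median coefficient of variation between replicates was 7.14% in WT, 5.41% in the Δ*veA*-labelled libraries and 4.07% in the Δ*laeA* libraries. Over all genes tested it was 6.17%, 7.25% and 6.13% in the same order. The largest values among the 136 genes were 55.0%, 19.8% and 27.3%.

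All 136 genes passed both thresholds in the direction of a higher level in each mutant (adjusted p under 0.05, more than 2-fold), and no mutant library of any of them overlapped the WT libraries. The genes were chosen on these contrasts, so nothing is read from these counts. Over all genes tested, 13.6% were called higher than WT in the Δ*veA*-labelled libraries, 9.9% in the Δ*laeA* libraries and 5.62% in both (quasi-likelihood test of edgeR, p-values adjusted by the Benjamini-Hochberg method), and all 3 libraries lay above all 3 WT libraries for 40.2% and 37.4%. The 136 are 25.5% of the 533 genes called higher in both. Taken by itself, the Δ*laeA* side of the rule was met by 295 genes, of which the 136 are 46.1%. The Δ*veA* side by itself was met by 421 genes, of which the 136 are 32.3%.

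**Figure D1:**
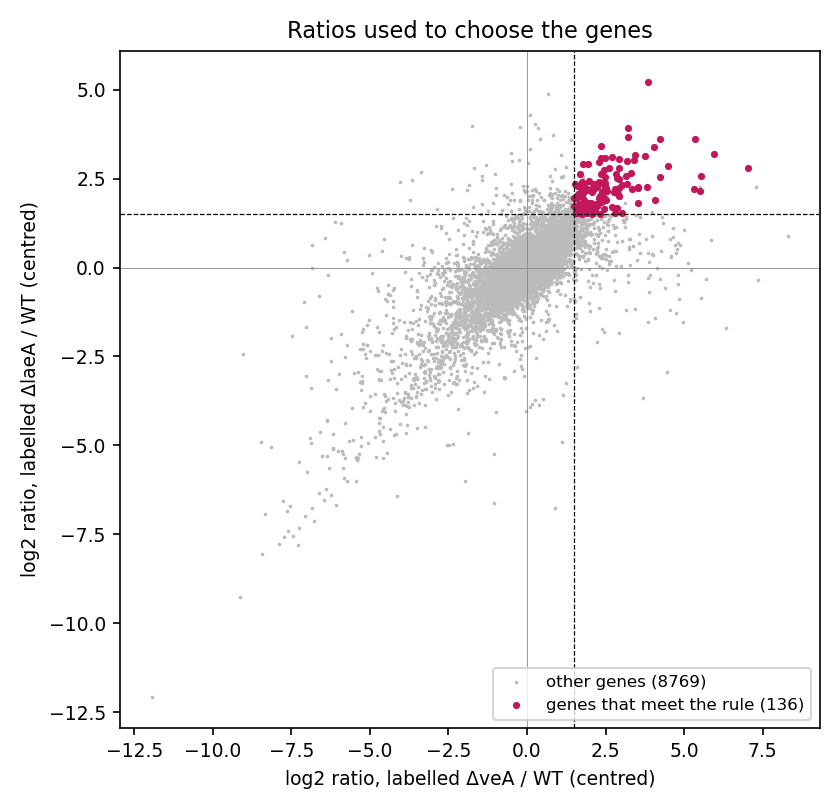
Centred log2 ratio to WT of each gene averaging 1 CPM or more, in the ΔveA-labelled libraries (x axis) and in the ΔlaeA libraries (y axis). The 136 genes that meet the rule (red) lie above 1.5 on both axes (dashed lines), and both axes share the WT libraries.

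At the edge of the ratio threshold, AN5283 (centred ratios 1.74 and 1.5001 in the order Δ*veA*, Δ*laeA*), AN2029 (2.33 and 1.502) and *nar1* (1.503 and 1.74) lay just inside. Just outside were *hem13* (1.497 and 1.77), AN11288 (1.49 and 1.87) and AN8692 (2.42 and 1.48). At the edge of the level threshold, AN5368 was inside with 5.31 CPM by library totals in its lower mutant, and AN11864 was outside with 4.91 CPM in the Δ*laeA* libraries, although it had 53.5 CPM in the Δ*veA*-labelled libraries. A further 22 genes met the ratio but were under 5 CPM in a mutant. The smaller of both ratios was under 2 for 76 of the 136 genes, at least 2 for 60 and at least 3 for 10.

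Of the 136 genes, 11 (8.09%) carry a gene symbol in the RefSeq table of assembly ASM1142v1, beside 7.09% of all rows. They include transporters of iron chelates, zinc and nitrate, enzymes of cofactor and redox metabolism, and a receptor, and they are described in that order.

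*sit1* (AN5378) and *sit2* (AN3763) carry the names of siderophore-iron transporters of *Aspergillus fumigatus*, membrane proteins that bring ferric iron into the cell bound to siderophores. *sit1* was at 8.48, 7.67 and 8.85 CPM in WT, 83.3, 79.2 and 80.4 CPM in the Δ*veA*-labelled libraries and 44.1, 44.8 and 45.9 CPM in the Δ*laeA* libraries. The 3 groups did not overlap, WT was lowest and the Δ*veA*-labelled libraries were highest. Its log2 ratio to WT was 3.30 in the Δ*veA*-labelled libraries and 2.45 in the Δ*laeA* libraries. Set against each other, the mutants differed by 0.85 on the log2 scale (SE 0.0633, adjusted p = 1.32e-13, edgeR quasi-likelihood test), which is under 2-fold. *sit2* was at 7.69, 7.81 and 6.85 CPM in WT, 40.4, 44.5 and 40.4 CPM in the Δ*veA*-labelled libraries and 42.8, 40.5 and 39.6 CPM in the Δ*laeA* libraries. Both mutant groups lay above WT and overlapped each other. The difference between the mutants was 0.027 (95% interval -0.12 to 0.17, adjusted p = 0.758, edgeR quasi-likelihood test), so the pair of transporters differed in how they compared between the mutants while both were above WT.

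*zrfC* (AN1833) and *aspf2* (AN1832) are neighbours in the RefSeq order. In *A. fumigatus*, *zrfC* encodes a plasma membrane zinc transporter used at alkaline and neutral pH and *aspf2* encodes a secreted zinc-binding allergen that is expressed with it. *aspf2* was at 16.2, 16.4 and 16.3 CPM in WT, 82.6, 89.1 and 88.6 CPM in the Δ*veA*-labelled libraries and 179.6, 178 and 181 CPM in the Δ*laeA* libraries. No groups overlapped, and the Δ*laeA* libraries were highest. The difference Δ*veA* minus Δ*laeA* was -1.05 (SE 0.0518, adjusted p = 2.33e-18, edgeR quasi-likelihood test), just past 2-fold. With library totals in place of TMM it was -0.99, on the other side of the 2-fold limit. *zrfC* was at 6.52, 4.54 and 5.25 CPM in WT, 19.97, 21.004 and 21.1 CPM in the Δ*veA*-labelled libraries and 27.2, 26.6 and 25.7 CPM in the Δ*laeA* libraries, with the same order of groups and again no overlap. Its difference between the mutants was -0.36 (SE 0.0939, adjusted p = 0.00111, edgeR quasi-likelihood test).

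*crnA* (AN1008) encodes a high-affinity nitrate transporter and is known to lie beside the nitrite reductase gene *niiA* and the nitrate reductase gene *niaD*. It was at 77.1, 71.1 and 73.3 CPM in WT, 312, 307 and 284 CPM in the Δ*veA*-labelled libraries and 238, 215 and 226 CPM in the Δ*laeA* libraries. The groups did not overlap, and the Δ*veA*-labelled libraries were highest. The mutants differed by 0.41 (SE 0.0504, adjusted p = 1.14e-08, edgeR quasi-likelihood test). The neighbouring genes were not among the 136. *niiA* had log2 ratios to WT of 0.52 in the Δ*veA*-labelled libraries and 1.57 in the Δ*laeA* libraries, and *niaD* of 0.69 and 1.01, so that for both the ratio was larger in the Δ*laeA* libraries, whereas for *crnA* it was larger in the Δ*veA*-labelled libraries (2.03 against 1.62).

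*nar1* (AN3632) and *cox15* (AN1915) are named after yeast genes that serve iron-containing cofactors. In yeast, Nar1 takes part in the assembly of cytosolic and nuclear iron-sulfur proteins, and Cox15 makes haem A for cytochrome oxidase. *nar1* was at 31.7, 31.9 and 30.8 CPM in WT, 93.6, 93.2 and 89.4 CPM in the Δ*veA*-labelled libraries and 109, 109 and 104 CPM in the Δ*laeA* libraries. *cox15* was at 67.9, 72.7 and 70.5 CPM in WT, 245, 237 and 248 CPM in the Δ*veA*-labelled libraries and 227, 237 and 218 CPM in the Δ*laeA* libraries. For *nar1* the mutants did not overlap and the Δ*laeA* libraries were higher, whereas for *cox15* the highest Δ*laeA* library lay just below the lowest Δ*veA*-labelled one. The difference was -0.22 for *nar1* (adjusted p = 0.000597) and 0.10 for *cox15* (95% interval 0.0048 to 0.19, adjusted p = 0.0665; edgeR quasi-likelihood test).

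*trr1* (AN3581) encodes thioredoxin reductase, which passes electrons from NADPH to thioredoxin. It was at 131, 109 and 116 CPM in WT, 755, 713 and 668 CPM in the Δ*veA*-labelled libraries and 546, 508 and 537 CPM in the Δ*laeA* libraries, with no overlap between the groups. The mutants differed by 0.42 (SE 0.0542, adjusted p = 3.16e-08, edgeR quasi-likelihood test). *frdA* (AN10296) is named for fumarate reductase, which reduces fumarate to succinate. It was at 775, 752 and 732 CPM in WT, 2266, 2301 and 2221 CPM in the Δ*veA*-labelled libraries and 2512, 2378 and 2456 CPM in the Δ*laeA* libraries. *frdA* was the symbol-bearing gene with the most counts, and its mutant groups lay close together without overlap, with a difference of -0.11 (SE 0.0419, adjusted p = 0.0167, edgeR quasi-likelihood test). *bna4* (AN5200) is named after the yeast gene for kynurenine 3-monooxygenase, a step from tryptophan towards NAD. It was at 38.9, 38.8 and 39.9 CPM in WT, 172, 153 and 156 CPM in the Δ*veA*-labelled libraries and 138, 131 and 139.6 CPM in the Δ*laeA* libraries. The groups were separate, the Δ*veA*-labelled libraries were highest, and the mutants differed by 0.24 (adjusted p = 0.000198, edgeR quasi-likelihood test).

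*gprC* (AN3765) encodes a G protein-coupled receptor of the family that includes putative carbon sensors of yeasts and aspergilli. It was at 4.56, 5.397 and 4.47 CPM in WT, 72.7, 69.6 and 73.2 CPM in the Δ*veA*-labelled libraries and 44.1, 47.1 and 46.4 CPM in the Δ*laeA* libraries. WT was far below both mutants and the groups did not overlap. The log2 ratio to WT was 3.87 in the Δ*veA*-labelled libraries and 3.22 in the Δ*laeA* libraries, which places *gprC* among the 10 genes with the largest smaller ratio. The mutants differed by 0.65 (SE 0.0658, adjusted p = 2.13e-10, edgeR quasi-likelihood test).

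**Figure D2:**
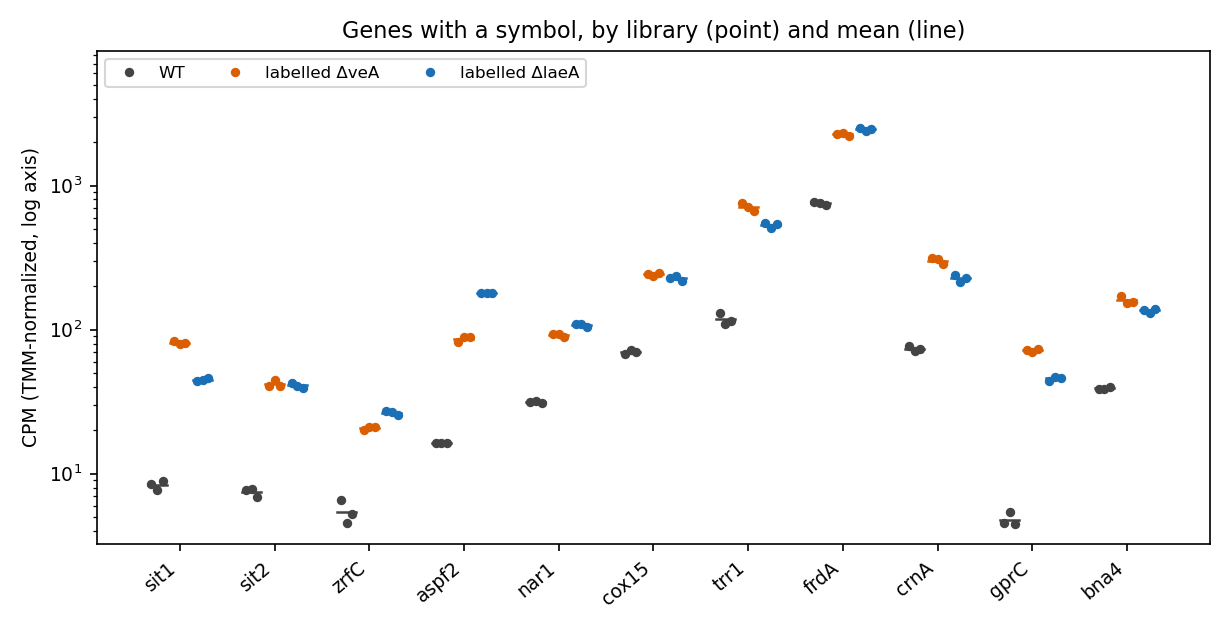
TMM-normalized CPM (log axis) of the 11 genes with a symbol, with 1 point per library and a line at the mean of each genotype. All mutant points lie above the WT points of the same gene, *aspf2* is highest in the ΔlaeA libraries, and *sit1* and *gprC* are highest in the ΔveA-labelled libraries.

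The other 125 genes have no symbol in that table and are named by identifier only. Most of the counts of the whole group came from a few of them: the top 5 by counts made up 65.9% to 66.5% of the group's total in WT, 62.3% to 63.1% in the Δ*veA*-labelled libraries and 62.6% to 63.1% in the Δ*laeA* libraries. These are counts and not levels per length of transcript. AN2530 was at 4215, 4517 and 4412 CPM in WT, 16404, 18265 and 17429.8 CPM in the Δ*veA*-labelled libraries and 15388, 15928 and 15519 CPM in the Δ*laeA* libraries. AN3555 was at 1984, 2139.7 and 2082 CPM in WT, 9019, 10210.2 and 10081 CPM in the Δ*veA*-labelled libraries and 7329, 7151 and 7256 CPM in the Δ*laeA* libraries. Both were several-fold above WT in every mutant library, and the mutant groups did not overlap. AN5781, AN7892 and AN7625 completed the 5, with mean levels in that order of 2021, 1352 and 1177 CPM in WT. The means of the Δ*veA*-labelled libraries were 8058, 6956 and 6494 CPM, and those of the Δ*laeA* libraries were 6753, 5565 and 4346 CPM. All 3 were higher in the Δ*veA*-labelled libraries than in the Δ*laeA* libraries, by 0.25, 0.32 and 0.58 on the log2 scale (adjusted p = 2.14e-06, 3.72e-08 and 1.32e-13, edgeR quasi-likelihood test).

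The next genes by counts were AN1624, *frdA*, AN2928, AN0913 and AN6693. AN1624 was at 471, 437 and 456 CPM in WT, 3613, 3498 and 3576 CPM in the Δ*veA*-labelled libraries and 2189.9, 2098 and 2261 CPM in the Δ*laeA* libraries, with no overlap of groups. AN2928 was at 315, 361 and 334 CPM in WT, 2643, 2465 and 2372 CPM in the Δ*veA*-labelled libraries and 1089.6, 1025 and 1155 CPM in the Δ*laeA* libraries, again without overlap, and it was the only one of the 10 past 2-fold between the mutants (1.19, SE 0.0514, adjusted p = 5.69e-20, edgeR quasi-likelihood test). AN0913 was at 514, 567 and 542 CPM in WT, 1625, 1843 and 1829 CPM in the Δ*veA*-labelled libraries and 1602, 1594 and 1585 CPM in the Δ*laeA* libraries. Its mutant groups lay close together without overlap, with a difference of 0.15 (SE 0.0475, adjusted p = 0.00666, edgeR quasi-likelihood test). AN6693 was at 310.4, 342 and 358 CPM in WT, 968, 1164 and 1067 CPM in the Δ*veA*-labelled libraries and 1031, 1025 and 1009 CPM in the Δ*laeA* libraries. Its mutant groups overlapped, with a difference of 0.062 (95% interval -0.044 to 0.17, adjusted p = 0.31, edgeR quasi-likelihood test).

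**Figure D3:**
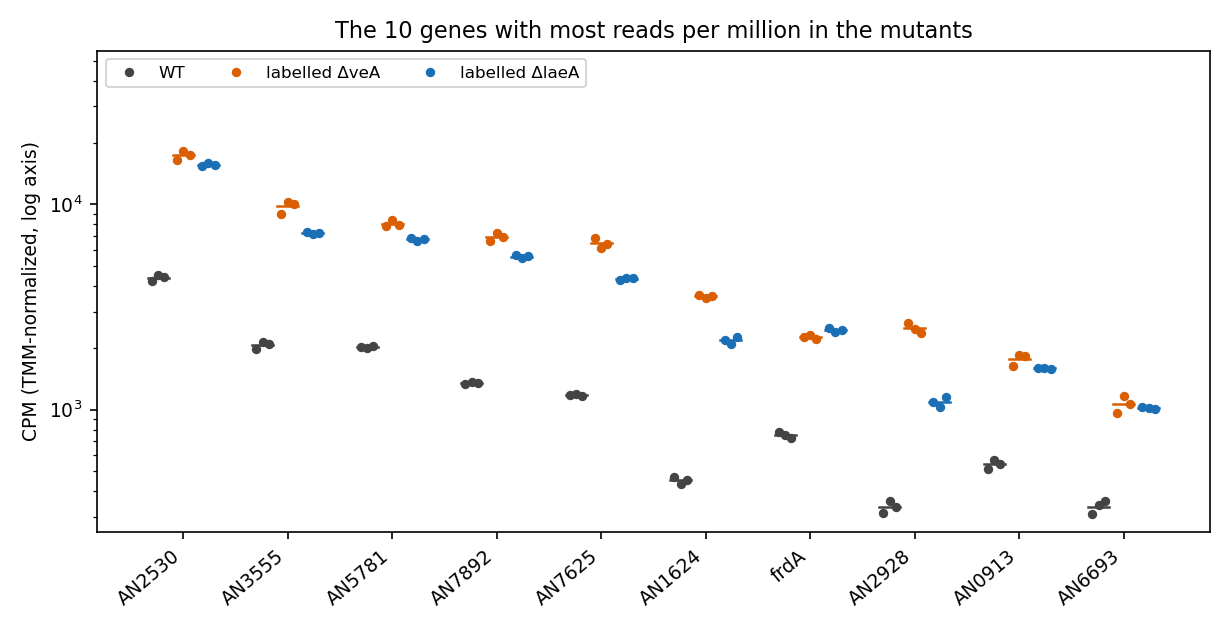
TMM-normalized CPM (log axis) of the 10 genes with the highest mean over the 6 mutant libraries, with 1 point per library and a line at the mean of each genotype. WT points lie below all mutant points of the same gene, and AN2928 shows the widest gap between the mutants.

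The 10 genes with the largest smaller ratio were the farthest from WT in both mutants at once. AN5467 was at 4.24, 3.05 and 3.56 CPM in WT, 59.5, 59.9 and 57.6 CPM in the Δ*veA*-labelled libraries and 146, 159.8 and 154 CPM in the Δ*laeA* libraries. AN8444 was at 2.48, 3.27 and 1.91 CPM in WT, 125, 129.6 and 119 CPM in the Δ*veA*-labelled libraries and 37.7, 33.97 and 38.9 CPM in the Δ*laeA* libraries. Both were at a few CPM in WT, but AN5467 was higher in the Δ*laeA* libraries and AN8444 in the Δ*veA*-labelled libraries. AN5228 was at 29.02, 27.9 and 24.4 CPM in WT, 497, 571 and 530.1 CPM in the Δ*veA*-labelled libraries and 340.1, 348 and 328 CPM in the Δ*laeA* libraries. AN10299, which lies next to *frdA*, was at 26.9, 25.7 and 25.5 CPM in WT, 454, 445 and 437 CPM in the Δ*veA*-labelled libraries and 279, 273 and 286 CPM in the Δ*laeA* libraries. Both genes were counted at over 20 CPM in WT and over 10 times higher in each mutant, with every Δ*veA*-labelled library above every Δ*laeA* library. AN2596 was at 12.8, 9.65 and 10.8 CPM in WT, 116, 109.8 and 102 CPM in the Δ*veA*-labelled libraries and 184, 171 and 179 CPM in the Δ*laeA* libraries, the opposite order of the mutants. The others were AN11094, *gprC*, AN9388, AN7772 and AN5368. AN9388 was at 0.782, 0.757 and 1.17 CPM in WT, 13.1, 11.4 and 11.9 CPM in the Δ*veA*-labelled libraries and 18.3, 14.9 and 17.2 CPM in the Δ*laeA* libraries. AN7772 was at 2.74, 1.88 and 0.911 CPM in WT, 23.8, 27.2 and 23.5 CPM in the Δ*veA*-labelled libraries and 17.5, 22.5 and 20.3 CPM in the Δ*laeA* libraries. The mutants of AN9388 were separate with the Δ*laeA* libraries higher, and those of AN7772 were separate with the Δ*veA*-labelled libraries higher. AN5368 was at 0.326, 0.342 and 0.347 CPM in WT, 7.92, 7.83 and 7.96 CPM in the Δ*veA*-labelled libraries and 6.199, 5.995 and 5.22 CPM in the Δ*laeA* libraries, and its log2 ratios of 4.52 and 4.07 rest on few WT counts.

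For the comparison of both mutants with each other, a gene was called when its adjusted p was under 0.05 and the change was more than 2-fold, over the 9481 genes tested. Of the 136 genes, 18 (13.2%) were higher in the Δ*veA*-labelled libraries, beside 6.74% of all genes tested, and 3 (2.21%) were lower, beside 11.6% of all genes tested. The other 115 were not past both thresholds. By the adjusted p alone, 78 (57.4%) were higher in the Δ*veA*-labelled libraries, beside 36.5% of all genes, 34 (25%) were lower, beside 33.6%, and 24 did not pass. All 3 Δ*veA*-labelled libraries lay above all 3 Δ*laeA* libraries for 82 of the genes (60.3%), beside 37.2% of all genes, and below them for 34 (25%), beside 34% of all genes. The groups overlapped for 20. The median difference over the 136 was 0.26 on the log2 scale, beside 0.027 over all genes, and it was within 0.5 in either direction for 81 of them. Since both mutants had to be far above WT to be included, the size of this shift relative to other genes is given as a description.

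**Figure D4:**
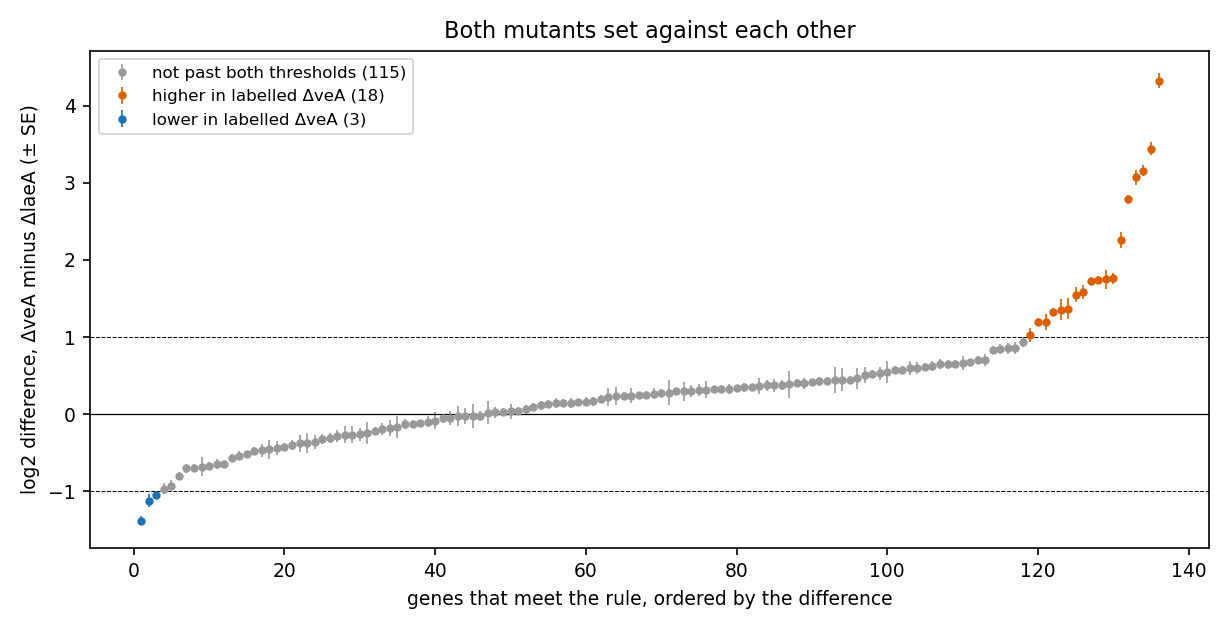
Log2 difference between the ΔveA-labelled libraries and the ΔlaeA libraries for each of the 136 genes, in order, with bars of 1 standard error. The 18 genes higher by more than 2-fold in the ΔveA-labelled libraries reach 4.32, and the 3 lower ones reach -1.38 (dashed lines mark 2-fold).

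AN8095 differed most between the mutants. It was at 0.717, 1.07 and 0.521 CPM in WT, 147, 178 and 156 CPM in the Δ*veA*-labelled libraries and 6.88, 7.803 and 9.202 CPM in the Δ*laeA* libraries, and no groups overlapped. The difference between the mutants was 4.32 on the log2 scale (SE 0.0953, adjusted p = 3.07e-27, edgeR quasi-likelihood test), a 20.02-fold higher level in the Δ*veA*-labelled libraries. AN6437 was at 1.63, 1.51 and 2.26 CPM in WT, 106, 104 and 98.99 CPM in the Δ*veA*-labelled libraries and 10.04, 9.23 and 9.202 CPM in the Δ*laeA* libraries. AN2990 was at 3.65, 2.56 and 2.65 CPM in WT, 136, 137 and 136 CPM in the Δ*veA*-labelled libraries and 14.8, 14.99 and 16.1 CPM in the Δ*laeA* libraries. No groups overlapped in either gene, and the Δ*laeA* libraries lay between WT and the Δ*veA*-labelled libraries. Their differences were 3.44 (SE 0.0827, adjusted p = 3.97e-27) and 3.16 (SE 0.0726, adjusted p = 1.13e-27; edgeR quasi-likelihood test). AN7087 was at 1.11, 0.6105 and 0.607 CPM in WT, 55.05, 55.8 and 59.998 CPM in the Δ*veA*-labelled libraries and 6.45, 6.99 and 6.78 CPM in the Δ*laeA* libraries. AN11094 was at 3.91, 4.15 and 4.95 CPM in WT, 298, 316 and 299.9 CPM in the Δ*veA*-labelled libraries and 43.02, 46.2 and 42.9 CPM in the Δ*laeA* libraries. They too were separate in all 3 groups, with differences of 3.07 (SE 0.0984, adjusted p = 1.34e-23) and 2.79 (SE 0.0575, adjusted p = 5.61e-29; edgeR quasi-likelihood test).

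The other 13 genes higher in the Δ*veA*-labelled libraries had differences of 1.03 to 2.25. They were AN8532, AN8444, AN8365, AN4795, AN6796, AN3873, AN0364, AN7974, AN3888, AN6753, AN3321, AN2928 and AN6953. AN6796 was at 32.5, 34.6 and 31.5 CPM in WT, 622, 662 and 654 CPM in the Δ*veA*-labelled libraries and 199, 193 and 192 CPM in the Δ*laeA* libraries, a difference of 1.73 (SE 0.0471, adjusted p = 1.32e-25, edgeR quasi-likelihood test). AN8365 was at 0.848, 0.464 and 0.607 CPM in WT, 26.95, 20.1 and 25.9 CPM in the Δ*veA*-labelled libraries and 7.44, 7.14 and 7.26 CPM in the Δ*laeA* libraries, a difference of 1.75 (SE 0.124, adjusted p = 4.23e-14, edgeR quasi-likelihood test). Both genes were separate in all 3 groups, from WT levels that differ between them.

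The 3 genes lower in the Δ*veA*-labelled libraries than in the Δ*laeA* libraries were AN5467, AN7921 and *aspf2*. The difference of AN5467 was -1.38 (SE 0.0599, adjusted p = 7.12e-20, edgeR quasi-likelihood test). AN7921 was at 4.24, 4.22 and 4.38 CPM in WT, 17.3, 14.6 and 16.5 CPM in the Δ*veA*-labelled libraries and 35.1, 35.6 and 35.2 CPM in the Δ*laeA* libraries. No groups overlapped, and its difference was -1.12 (SE 0.0874, adjusted p = 4.21e-13, edgeR quasi-likelihood test). Among the 24 genes whose adjusted p did not pass, differences ranged from -0.24 to 0.28, with 95% intervals that together spanned -0.52 to 0.60, and *sit2*, *cox15*, AN6693, AN3279, AN8554, AN8555 and AN2032 were among them. A p that misses the threshold does not show equal levels in both mutants.

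Position was not used by the rule. The RefSeq table places 125 of the 136 genes in the order of its assembly, and 21 of them (16.8%) were next to another of the 136, beside 207 (2.09%) of 9907 other placed genes that were next to one. They formed 9 runs, of which 1 held 4 genes, 1 held 3 and 7 held 2, and 104 genes stood alone. Default program settings, which the methods name, leave strand unused in FeatureCounts, so reads of overlapping or antisense neighbours cannot be told apart. Counts of near-identical gene copies may be incomplete.

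The longest run held AN3280, AN3279, AN3278 and AN3277. AN3280 was at 1.695, 2.81 and 2.52 CPM in WT, 16.8, 13.99 and 14.7 CPM in the Δ*veA*-labelled libraries and 18.7, 18.2 and 18.2 CPM in the Δ*laeA* libraries. AN3279 was at 1.695, 1.73 and 1.34 CPM in WT, 8.19, 7.73 and 7.35 CPM in the Δ*veA*-labelled libraries and 8.18, 8.42 and 9.58 CPM in the Δ*laeA* libraries. Both were at low levels in WT and did not differ by 2-fold between the mutants. AN3278 was at 11.9, 9.402 and 10.5 CPM in WT, 45.9, 39.7 and 44.998 CPM in the Δ*veA*-labelled libraries and 36.3, 34.9 and 33.96 CPM in the Δ*laeA* libraries. AN3277 was at 6.78, 6.06 and 4.64 CPM in WT, 25.1, 22.8 and 22.7 CPM in the Δ*veA*-labelled libraries and 21.2, 18.7 and 20.2 CPM in the Δ*laeA* libraries. In this pair every Δ*veA*-labelled library lay above every Δ*laeA* library, with differences of 0.32 and 0.24 (adjusted p = 0.000631 and 0.0316, edgeR quasi-likelihood test), while AN3280 had a difference of -0.26 (adjusted p = 0.0337, edgeR quasi-likelihood test). The next gene, AN3276, had means of 12.7, 35.0 and 31.3 CPM in WT, the Δ*veA*-labelled libraries and the Δ*laeA* libraries, and missed the rule with centred ratios of 1.40 and 1.26. On the other side, AN3281 was at 0.361, 0.963 and 1.83 CPM, under the level threshold. Its centred ratios were 0.86 and 1.55, so it also missed the ratio threshold in the Δ*veA*-labelled libraries.

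The run of 3 held AN8554, AN8555 and AN8556. AN8554 was at 1.4997, 1.59 and 1.26 CPM in WT, 13.8, 12.7 and 13.4 CPM in the Δ*veA*-labelled libraries and 10.97, 12.2 and 10.8 CPM in the Δ*laeA* libraries. AN8555 was at 4.499, 3.59 and 4.43 CPM in WT, 25.2, 27.4 and 25.3 CPM in the Δ*veA*-labelled libraries and 26.8, 26.3 and 27.3 CPM in the Δ*laeA* libraries. AN8556 was at 6.91, 6.28 and 7.51 CPM in WT, 32.99, 31.5 and 32.8 CPM in the Δ*veA*-labelled libraries and 35.9, 35.8 and 39.6 CPM in the Δ*laeA* libraries. All 3 were several-fold above WT in both mutants and close between them, with differences of 0.23, -0.048 and -0.19 (adjusted p = 0.0779, 0.635 and 0.029, edgeR quasi-likelihood test). The adjoining genes outside the run were AN8553, with means of 6.12, 7.76 and 8.45 CPM in WT, the Δ*veA*-labelled libraries and the Δ*laeA* libraries, and AN8557, with 187, 269.6 and 465 CPM.

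**Figure D5:**
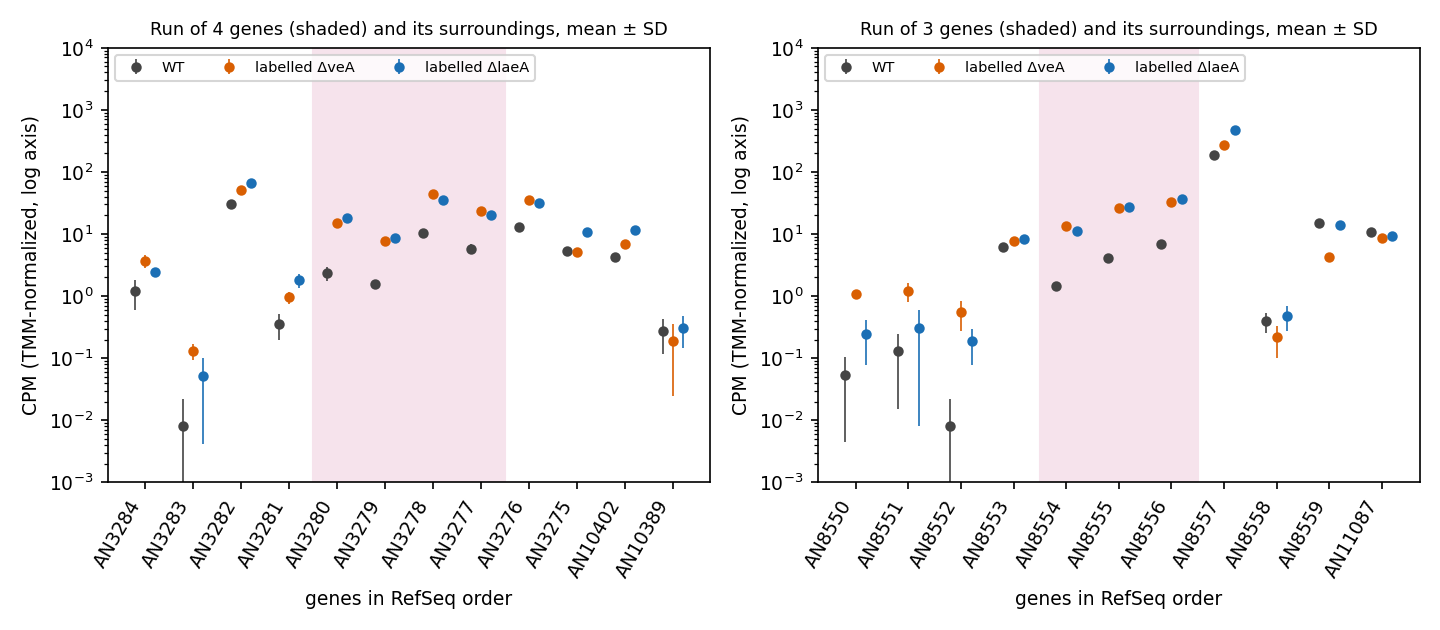
Mean TMM-normalized CPM (log axis, bars of 1 SD, n = 3) of the genes in and around the run of 4 (left) and the run of 3 (right), in RefSeq order, with the runs shaded. Inside the shading both mutants lie above WT for every gene, and AN8553, beside the run of 3, shows a smaller gap.

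The 7 pairs were *frdA* with AN10299, *aspf2* with *zrfC*, AN2032 with AN2033, AN2342 with AN2343, AN2596 with AN2597, AN2683 with AN2682 and AN6380 with AN6379. AN2596 and AN2597 were both higher in the Δ*laeA* libraries than in the Δ*veA*-labelled libraries, by a log2 difference Δ*veA* minus Δ*laeA* of -0.70 and -0.40 (adjusted p = 4.48e-12 and 3.91e-07, edgeR quasi-likelihood test). *aspf2* and *zrfC* also shared that direction. AN2342 and AN2343 (0.54 and 0.35), AN2683 and AN2682 (0.40 and 0.13) and AN6380 and AN6379 (0.94 and 0.20) were higher in the Δ*veA*-labelled libraries, and all 6 passed the adjusted p in the test of edgeR. AN2033 was higher in the Δ*laeA* libraries (-0.26, adjusted p = 0.00648), while AN2032 had a difference of -0.02 (adjusted p = 0.918, edgeR quasi-likelihood test). *frdA* (-0.11) and AN10299 (0.67) went in opposite directions. The members of a pair could stand at unlike count levels, as AN2342 did with 2.15 CPM in WT beside 228 CPM for AN2343.

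In 3 places, a single gene outside the group separated genes of the group. AN3764 lies between *gprC* and *sit2* and had means of 2.11, 1.10 and 0.906 CPM in WT, the Δ*veA*-labelled libraries and the Δ*laeA* libraries, so that its means ran opposite to those of its neighbours. AN6692, between AN6691 and AN6693, had 3.07, 5.56 and 3.67 CPM. AN6754, between AN6753 and AN6755, had 29.3, 53.6 and 100.3 CPM. Over all 182 tested genes that flank the group, 25.3% were called higher than WT in the Δ*veA*-labelled libraries (13.6% of all genes tested) and 21.4% in the Δ*laeA* libraries (9.9% of all genes tested), and 24 (13.2%) were higher in both (5.62% of all genes tested). Of the same flanking genes, 21.4% were called lower than WT in the Δ*veA*-labelled libraries (19.9% of all genes tested) and 16.5% in the Δ*laeA* libraries (14.5% of all genes tested).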

How the data were processed

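The authors mapped clean reads of strand-specific libraries with Hisat2 2.1 and counted reads per gene with FeatureCounts 1.5.0, and they deposited whole-number read counts without normalization (10988 rows, 9 libraries). Settings were the defaults per the methods, so the counting did not use strand. The genome build is not given in the sources used here beyond the RefSeq record that the paper cites. Each of the 9 single-library files holds the same values as its column in the joint table. Identifiers repeat in 31 rows, which were kept apart, and 264 rows had no reads. Samples were grouped by the genotype in the labels.

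The rule used plain CPM. Printed levels are TMM-normalized CPM. All 9 libraries were fitted in 1 genotype model with edgeR 4.0.16 in R 4.3.3 (filterByExpr, 9481 genes tested and 1507 rows put aside, robust quasi-likelihood test, Benjamini-Hochberg adjustment over all genes tested, calls at adjusted p under 0.05 and more than 2-fold, the thresholds of the study's methods). TMM factors were 1.14 to 1.15 (WT), 0.948 to 0.961 (Δ*veA*-labelled) and 0.913 to 0.916 (Δ*laeA*). The common biological coefficient of variation was 0.0525. The fit was tested on simulated data with changes planted only in the Δ*veA* columns and in well-counted genes, so the test does not cover genes with few counts. Depth is given above.

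The genes and all lists were chosen with earlier results of these data known. Genes named are those with a RefSeq symbol, the 10 with the highest mean over the 6 mutant libraries, the 10 with the largest smaller ratio, the 10 with the largest ratio in either mutant, among those called between the mutants the 5 with the largest difference in each direction (only 3 were lower in the Δ*veA*-labelled libraries), the genes of the longest runs, the 3 on either side of the ratio threshold and the label checks *veA*, *laeA*, *argB* and *metG* (*metG* was 32.3, 55.01 and 108 CPM in WT, the Δ*veA*-labelled libraries and the Δ*laeA* libraries). The remaining genes called between the mutants, the genes beside the runs and the genes at the level threshold were named after their values were seen.

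Symbols and gene order were taken from RefSeq (assembly ASM1142v1), matched by locus tag (10032 genes of 10516), and no coordinate is given because the study's record differs. Product names, proteins and promoter sequences were not used here. Replicate numbers were not taken as pairs, since same-numbered libraries correlated by only -0.040 to 0.10 in their deviations from group means. Alternatives were DESeq2 1.42.0, RLE factors, library totals, other filters, other pseudocounts and thresholds of the rule, a replicate block, only the groups compared, and each library left out. Plots used matplotlib 3.10.9.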

Additional observations from a re-analysis of the deposited data

How the results depend on the processing

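The number of genes that met the rule was 84 with no centring of the ratio, 352 with a ratio threshold of 1.0 and 60 with a threshold of 2.0, beside 136 as reported. It was 141, 124 and 110 with pseudocounts of 0.1, 1 and 2 CPM, 158 and 95 with level minimums of 1 and 20 CPM, 142 with TMM-normalized library sizes and no centring, and 131 to 137 with 1 library left out. Leaving out WT replicate 3 gave 131 genes, 129 of them shared with the 136.

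Between the mutants, 17 to 18 of the genes were called higher in the Δ*veA*-labelled libraries and 3 to 4 lower with 1 library left out, and the median difference stayed between 0.24 and 0.27. Without the fold minimum 78 were higher and 34 lower. Library totals alone moved the median difference to 0.32 and the median ratios to WT to 2.13 for the Δ*veA*-labelled libraries and 1.86 for the Δ*laeA* libraries, and the median of all genes moved to 0.089, -0.26 and -0.33. With 1 library left out the median ratios to WT were 2.34 to 2.43 and 2.18 to 2.24, and 136 to 136 of the genes were called higher than WT in either mutant. With at least 10 counts in every library, 134 of the genes were tested. With the replicate number as a block, 18 were higher and 3 lower, with a median difference of 0.26, and these were the same 18 and 3 genes.

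Of 863 values for 54 named genes under these alternatives, 854 kept their direction and their side of the thresholds. The call of *aspf2* was lost with library totals (-0.99). Reversals came in differences near 0: AN8555 (0.015) and AN2032 (0.042) with library totals, *sit2* (-0.010) with only the groups compared, and, with 1 library left out, AN2032 (-0.13 to 0.069), *sit2* (-0.019 to 0.059) and AN6693 (-0.0045 to 0.098). The cause was not tested. Depth limits genes with few WT counts most, the lowest having 27 counts over the 3 WT libraries.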

Other observations

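Other genes of the pathways described above were read beside the 136. Lists of these pathways were added after the values were seen and get counts only, over their genes outside the 136, by the same thresholds (edgeR quasi-likelihood test, 13.6% of all genes tested called higher than WT in the Δ*veA*-labelled libraries and 9.9% in the Δ*laeA* libraries). Of 3 zinc uptake genes beside *zrfC* and *aspf2*, 1 was higher than WT in each mutant, *zrfA*, which had means of 3.43, 13.7 and 6.65 CPM in WT, the Δ*veA*-labelled libraries and the Δ*laeA* libraries. *zrfB* had log2 ratios of 0.60 and 0.038 and *zrfD* of -0.70 and -0.53, in the order Δ*veA*, Δ*laeA*. Of 3 siderophore transporter genes beside *sit1* and *sit2*, 0 were higher in the Δ*veA*-labelled libraries and 1 in the Δ*laeA* libraries (*mirB*, 1.10), while *mirC* had -0.91 and -0.88. Of 5 genes of siderophore synthesis and use, 4 were higher in the Δ*veA*-labelled libraries and 0 in the Δ*laeA* libraries. The 4 were *sidD* (2.29 against -0.21), *sidH* (2.43 against 0.0055), *sidI* (1.25 against -0.75) and *sidJ* (2.105 against 0.64), and the direct difference between the mutants was called for all 4. The iron regulators *hapX* and *sreA* had -0.21 and -0.48 in the Δ*veA*-labelled libraries and 0.31 and 0.37 in the Δ*laeA* libraries, within 2-fold of WT.

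Of 4 haem synthesis genes beside *cox15*, 3 were higher in the Δ*veA*-labelled libraries (*hem13*, *hemA* and *cox10*) and 1 in the Δ*laeA* libraries (*hem13*). *hem13*, named after the yeast coproporphyrinogen oxidase gene, had means of 1159, 3351 and 3995 CPM in WT, the Δ*veA*-labelled libraries and the Δ*laeA* libraries. Of 5 genes of iron-sulfur cluster assembly beside *nar1*, 1 was higher in the Δ*veA*-labelled libraries (*nbp35*) and 0 in the Δ*laeA* libraries. Of 2 genes of thioredoxin and glutathione reduction beside *trr1*, 1 was higher in each mutant, *glr1* in the Δ*veA*-labelled libraries and *gliT* in the Δ*laeA* libraries. Of 4 G protein-coupled receptor genes beside *gprC*, 1 was higher in each mutant (*gprD*, 4.49 and 1.56). In the same list the pheromone receptor gene *preA* had -3.12 and -1.32. Of 1 kynurenine pathway gene beside *bna4* and 2 fumarate and succinate genes beside *frdA*, 0 were called in either mutant.

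Other lists were matched by symbol, which only 11 of the 136 genes carry, so a count of 0 does not show that a pathway is absent. Of 11 glycolysis symbols 2 were found, and 0 were among the 136. Of 19 antioxidant and stress symbols 4 were found (*catA*, *atfA*, *hsp70* and *hsp90*). Of these 4, 0 were among the 136, but the list does not hold the thioredoxin reductase gene under its symbol *trr1*, which is among the 136. Of 9 siderophore and iron genes, a list without *sit1* and *sit2*, 0 were among them, and of 6 nitrate and ammonium genes 1 was (*crnA*). The share over all rows was 1.24%, and these lists are small. Both glycolysis genes were called higher in the Δ*laeA* libraries (*gpdA* 1.56, *pgkA* 1.11), and *gpdA* also in the Δ*veA*-labelled libraries (1.29). *prnB*, the only gene found of sugar and amino acid transport, was called higher in both mutants (3.80 and 3.13) but was under 5 CPM. Of the nitrate and ammonium genes, 1 was higher than WT in the Δ*veA*-labelled libraries and 3 in the Δ*laeA* libraries. None of 3 genes of acetate use and gluconeogenesis (17 symbols listed), 2 of drug efflux (9 listed) and 4 of plant polysaccharide breakdown (20 listed) was among the 136. The same held for 5 genes of secondary metabolism and 2 of sulfur metabolism (15 symbols listed). Of 8 symbols listed for autolysis and proteases, 0 were found. Of 25 symbols listed for secondary metabolism, the 5 found were *ivoA*, *ivoB*, *yA*, *pksP* and *laeA* itself. Of these 5, 0 were called higher than WT in either mutant, and 3 were called lower in the Δ*veA*-labelled libraries (19.9% of all genes tested). In the Δ*laeA* libraries 2 were called lower, *ivoA* and the deleted *laeA* (14.5% of all genes tested). *ivoA*, *ivoB* and *yA* are also among the markers of conidiophores and conidia.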
